A study of Mus musculus with 3 samples.

Results

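Ifitm1, Ifitm2 and Ifitm3, which encode interferon-induced transmembrane proteins, and Bst2, which encodes tetherin, were followed through the cell classes of the mouse retina at 3 ages. They were taken by symbol as a group of membrane-bound antiviral restriction genes, 4 of the 32285 genes named in the count matrices, and each was detected in all 3 libraries. The retinas came from C57BL/6JRj mice at 3 months of age, here called young, at 12 months, called adult, and at 23 months, called old. Magnetic beads against CD31, an endothelial surface protein, served to enrich vascular cells from the digested tissue. Each age was represented by 1 droplet single-cell RNA-seq (scRNA-seq) library, read from the 3′ end of transcripts, made from the 4 pooled retinas of 2 mice. No allele or treatment separated the groups, so age was the sole difference given in the labels. An age and its library cannot be told apart, no test between ages was possible, and the 95% intervals in parentheses cover counting error of unique molecular identifiers (UMIs, tags that mark single captured transcripts) and not the spread between mice.

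IFITM proteins are small membrane proteins, and IFITM2 and IFITM3 are known mainly from endosomes, where they hinder the fusion of enveloped viruses with the membrane. IFITM1 lies more at the cell surface. Tetherin is anchored in the membrane at both of its ends and holds budding enveloped virions on the cell surface. All are classical interferon-stimulated genes (ISGs), and IFITM3 is also known to be present in several cell types without added interferon. Endothelial cells line vessels, pericytes wrap capillaries, and Müller glia span the neural retina.

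On GRCm38 (GENCODE M21), Ifitm1 (ENSMUSG00000025491) lay on chr7:140967221-140969825, plus strand, with 3 exons in its longest transcript. Ifitm2 (ENSMUSG00000060591) lay on chr7:140954837-140955987 and Ifitm3 (ENSMUSG00000025492) on chr7:141009586-141010770, both on the minus strand and both with 2 exons. The 3 genes sat within 55934 bases, with the family members Ifitm5 and Ifitm6 on either side, and Ifitm2 overlapped an annotated gene, Gm45717, that was not analysed here. Bst2 (ENSMUSG00000046718), with 5 exons, lay on chr8:71534255-71537456, minus strand. The 300-base promoter windows of the members from RefSeq (GRCm38.p6) are printed because the old to young ratios of Ifitm3 and Bst2 in endothelial cells, given further on, lay above those of Ifitm1 and Ifitm2. The ratios were seen first, and a link between windows and ratios was not tested. Each window runs 5′ to 3′ along the gene's own strand, from 250 bases before the annotated start to 50 bases after it, and capitals mark the core of the interferon-stimulated response element, searched as 2 GAAA half-sites with any 2 bases between them. The windows are Ifitm1 at chr7:140967826-140968125 (plus), Ifitm2 at chr7:140955912-140956211 (minus), Ifitm3 at chr7:141010695-141010994 (minus) and Bst2 at chr8:71537423-71537722 (minus).
Ifitm1: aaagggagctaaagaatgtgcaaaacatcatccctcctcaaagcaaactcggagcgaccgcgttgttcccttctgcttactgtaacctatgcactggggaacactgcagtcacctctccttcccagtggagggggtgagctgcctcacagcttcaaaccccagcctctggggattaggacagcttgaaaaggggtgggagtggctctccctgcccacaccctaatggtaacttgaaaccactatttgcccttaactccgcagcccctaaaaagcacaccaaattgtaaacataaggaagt
Ifitm2: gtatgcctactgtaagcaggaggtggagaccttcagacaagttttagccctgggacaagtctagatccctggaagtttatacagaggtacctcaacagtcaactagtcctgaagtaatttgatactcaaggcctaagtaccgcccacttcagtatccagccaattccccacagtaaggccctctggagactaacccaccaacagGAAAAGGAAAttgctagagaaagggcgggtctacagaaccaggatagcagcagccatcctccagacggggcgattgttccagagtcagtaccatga
Ifitm3: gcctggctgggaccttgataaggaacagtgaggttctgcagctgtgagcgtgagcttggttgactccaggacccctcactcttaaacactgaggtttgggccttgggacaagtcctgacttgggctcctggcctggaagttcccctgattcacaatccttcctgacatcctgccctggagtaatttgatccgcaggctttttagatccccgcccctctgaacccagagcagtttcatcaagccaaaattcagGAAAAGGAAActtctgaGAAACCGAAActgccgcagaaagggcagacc
Bst2: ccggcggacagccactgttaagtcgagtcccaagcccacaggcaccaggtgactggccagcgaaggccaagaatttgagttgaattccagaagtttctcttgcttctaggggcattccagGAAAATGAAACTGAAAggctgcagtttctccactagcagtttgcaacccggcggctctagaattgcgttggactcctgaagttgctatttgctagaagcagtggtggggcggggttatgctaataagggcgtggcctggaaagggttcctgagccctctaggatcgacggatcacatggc

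Both strands were searched, and every match lay on the strand printed. This core was found in 3.44% of the 32851 promoter windows of the same length. Ifitm1 had no match, Ifitm2 had 1 that began at position -46, where 0 is the annotated start, Ifitm3 had 2, at positions 2 and 19, and Bst2 had 2 that overlapped each other, at positions -130 and -124. A longer form with CT added at its 3′ end, present in 0.271% of windows, was matched at both places in Ifitm3 and once in Bst2. The RefSeq start of Ifitm1 used here lay inside the GENCODE gene and not at its first base. A match of letters is a description of the window, and no match says nothing of the factors.

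After the study's limits on genes and mitochondrial UMIs and removal of doublets, 1705 young, 1957 adult and 1701 old cells remained, with median depths of 6353, 5964 and 6296 UMIs. Cells were clustered without the ISG lists, and classes were named from marker genes. Endothelial cells numbered 436, 418 and 403, pericytes 169, 129 and 103, smooth muscle cells 38, 38 and 37, and Müller glia 181, 214 and 208 in the young, adult and old library. Rods, cones and bipolar cells also passed 30 cells in each library. A further 784 droplets carried endothelial and pericyte markers together and were kept apart as mixed. Of these, 164 formed a cluster whose leading genes included arterial (Gkn3, Vegfc) and smooth muscle markers (Myh11, Acta2). No barcode of the kept cells was shared between the young library and another one, and the adult and old libraries shared 2.

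Over all kept cells the members gave 3794 (Ifitm1), 14004 (Ifitm2), 41653 (Ifitm3) and 7641 (Bst2) UMIs. Their sources were vascular for the most part. Endothelial and mixed endothelial-pericyte droplets held 42.2% and 42.6% of the Ifitm3 UMIs and 44.6% and 39.6% of those of Bst2. Ifitm1 stood apart, with 61.2% in mixed droplets, 23.2% in pericytes and 4.90% in endothelial cells. Of the other Ifitm genes, Ifitm5 gave 21, Ifitm6 50, Ifitm7 8 and Ifitm10 193 UMIs in all.

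Levels are given per 1000000 UMIs of a class in a library (CPM). Among the 7 classes with 30 or more cells in every library, Ifitm3 was highest in endothelial cells at every age, at 1309.7 CPM (1270.4 to 1349.9) at 3 months, 1470.1 CPM (1429 to 1512) at 12 months and 2284 CPM (2235 to 2333) at 23 months. In pericytes the Ifitm3 level was 965, 889 and 1216 CPM in the same order of libraries, in smooth muscle cells 325, 590.2 and 588 CPM, and in Müller glia 226, 323 and 240.5 CPM. Endothelial cells exceeded pericytes 1.36-fold (1.25 to 1.48) at 3 months, 1.65-fold (1.51 to 1.82) at 12 months and 1.88-fold (1.73 to 2.04) at 23 months. The counting intervals of neighbours among these 4 classes did not overlap in any library.

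Bst2 was likewise highest in endothelial cells among these classes, at 264 CPM (247 to 283) at 3 months, 241 CPM (224 to 258) at 12 months and 474 CPM (452 to 496) at 23 months. Pericytes held 64.7, 71.2 and 98.01 CPM of Bst2, Müller glia 61.6, 87.5 and 79.1 CPM and smooth muscle cells 39.0, 38.1 and 55.7 CPM. The endothelial level exceeded the pericyte level 4.09-fold (3.03 to 5.65) at 3 months, 3.38-fold (2.45 to 4.79) at 12 months and 4.83-fold (3.64 to 6.56) at 23 months. Below endothelial cells the order was not resolved, since the intervals of pericytes and Müller glia overlapped in all 3 libraries. Pericytes carried the summed endothelial markers at 6.16%, 6.09% and 6.73% of the endothelial level, and the part of such transcripts in the pericyte values was not tested.

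Of the 7 classes compared, pericytes had the highest Ifitm2 level, at 592, 577 and 690.1 CPM against 431, 454 and 511 CPM in endothelial cells. Its endothelial level was 0.728 (0.652 to 0.815), 0.788 (0.698 to 0.893) and 0.741 (0.660 to 0.833) of the pericyte level. Smooth muscle cells followed with 241, 311 and 315 CPM and Müller glia with 87.0, 90.05 and 55.5 CPM. The order pericytes, endothelial cells, smooth muscle cells and Müller glia was the same in each library, without overlap of neighbouring intervals.

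Among the 7 classes compared, Ifitm1 was highest in pericytes, which held 518, 479.8 and 516 CPM, from 360, 263 and 258 UMIs. Smooth muscle cells, the other mural class, held 3, 4 and 3 UMIs, and the pericyte level exceeded theirs 53.1-fold, 37.8-fold and 61.8-fold, with wide intervals (18.0 to 259, 14.6 to 139.8 and 20.9 to 301). Endothelial cells had 18.1, 21.7 and 14.9 CPM. They also carried pericyte markers, whose summed level was 5.43%, 6.04% and 3.88% of that in pericytes. Per 100 pericyte-marker UMIs, endothelial cells held 0.933, 1.08 and 1.11 UMIs of Ifitm1 and pericytes 1.45, 1.44 and 1.49. The part of pericyte RNA in the endothelial Ifitm1 level was not tested.

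**Figure D1:**
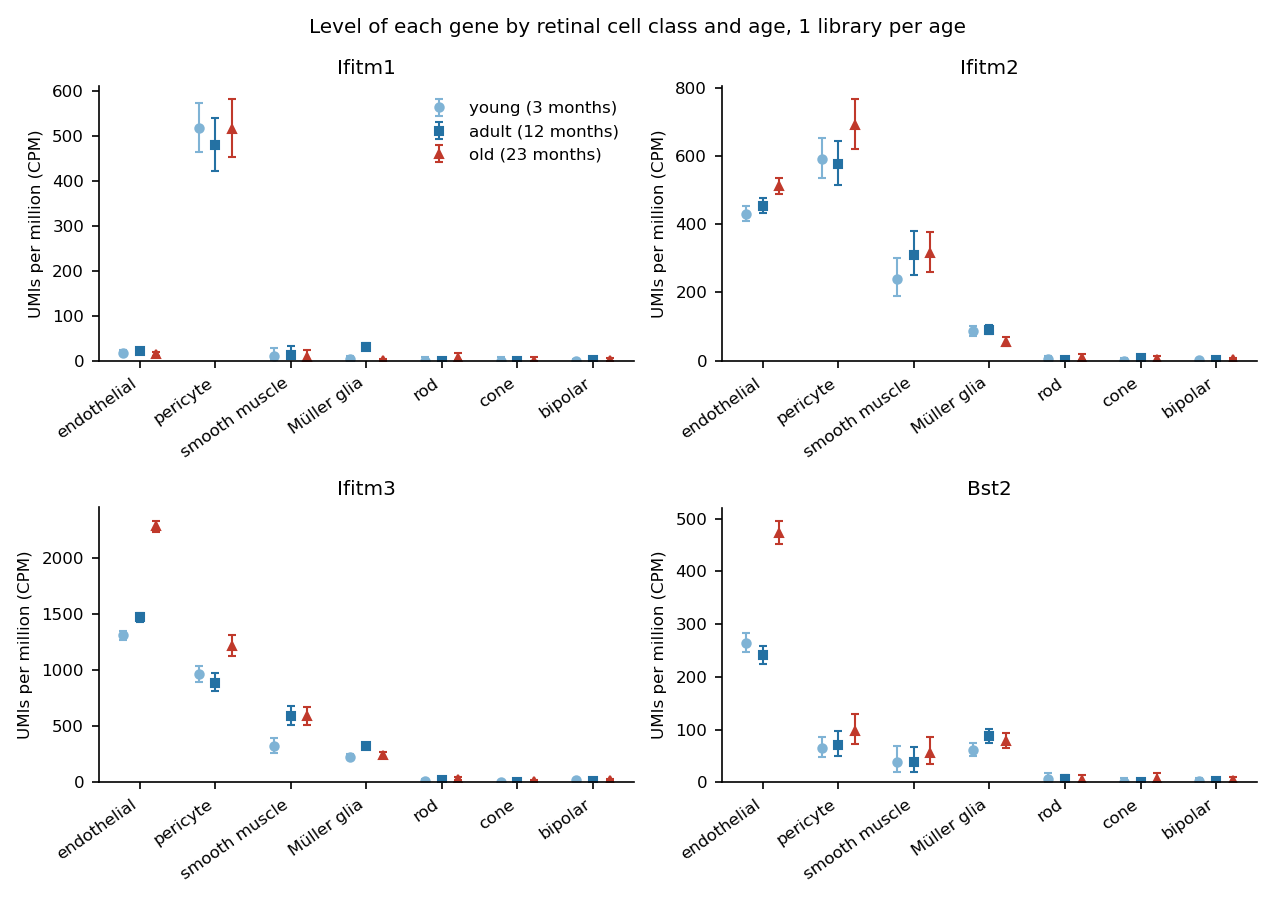
Level of each member (CPM, linear axis from 0) in the 7 retinal cell classes that held 30 or more cells in every library, at each age. Points are class sums and bars 95% Poisson intervals. Ifitm3 and Bst2 are highest in endothelial cells in all 3 libraries, and Ifitm1 and Ifitm2 in pericytes.

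In endothelial cells the members separated by age. The old to young ratio was 1.74 (1.68 to 1.81) for Ifitm3, from 4205 young and 8418 old UMIs. Bst2 had a ratio of 1.79 (1.65 to 1.95), from 849 and 1746 UMIs. Ifitm2 was higher in the old library by a smaller factor, 1.18 (1.10 to 1.27). The ratio of Ifitm1 was 0.826 (0.561 to 1.22), an interval that includes 1, and it ran from 0.376 to 2.67 under other choices of the endothelial cells. Thus 2 of the 4 members were at least 1.5-fold higher in the old library, where 5.8% of the 9802 genes with at least 50 UMIs were so, the median ratio of all these genes being 1.02. In the same cells the markers of Müller glia were at 713, 870.3 and 1065 CPM and those of rods at 61.4, 107 and 131 CPM in the young, adult and old library. Without endothelial cells that carry 2 or more markers of another class the ratio was 1.86 for Ifitm3 and 1.85 for Bst2. That choice left 198 of the 436 young, 143 of the 418 adult and 126 of the 403 old endothelial cells.

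Most of the difference lay between the adult and the old library. From young to adult the ratios were 1.12 (1.08 to 1.17) for Ifitm3, 1.05 (0.979 to 1.13) for Ifitm2, 0.910 (0.826 to 1.00) for Bst2 and 1.20 (0.839 to 1.73) for Ifitm1. None of the 4 reached 1.5-fold, against 4.15% of genes that were that much higher. From adult to old, Ifitm3 was higher 1.55-fold (1.5 to 1.61) and Bst2 1.97-fold (1.81 to 2.14), 2 of 4 members past 1.5-fold where 3.63% of genes were. The old to adult ratio was 1.12 (1.05 to 1.20) for Ifitm2 and 0.688 (0.476 to 0.989) for Ifitm1.

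Ratios were also set against each other within the same libraries. The old to young ratio of Ifitm3 was 1.47 (1.36 to 1.59) times that of its neighbour Ifitm2, and that of Bst2 was 1.51 (1.36 to 1.68) times that of Ifitm2. Ifitm3 and Bst2, on different chromosomes, were not separated by counting error, with a ratio of ratios of 1.03 (0.939 to 1.12). Ranked among all 9802 genes by old to young ratio, Bst2 was at place 254, Ifitm3 at 280, Ifitm2 at 2118 and Ifitm1 at 8295 from the top.

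The IFITM genes share sequence, which bears on how reads are assigned. Of the 50-base words of the longest transcript, 1.80% (Ifitm1), 3.30% (Ifitm2) and 5.56% (Ifitm3) occurred in another gene named in the matrices, and 6.36%, 48.5% and 10.0% in any other annotated gene, pseudogenes included. Bst2 had no shared word. IFITM counts are therefore uncertain to the extent that such reads were split or dropped before deposit, and those of Bst2 are not.

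**Figure D2:**
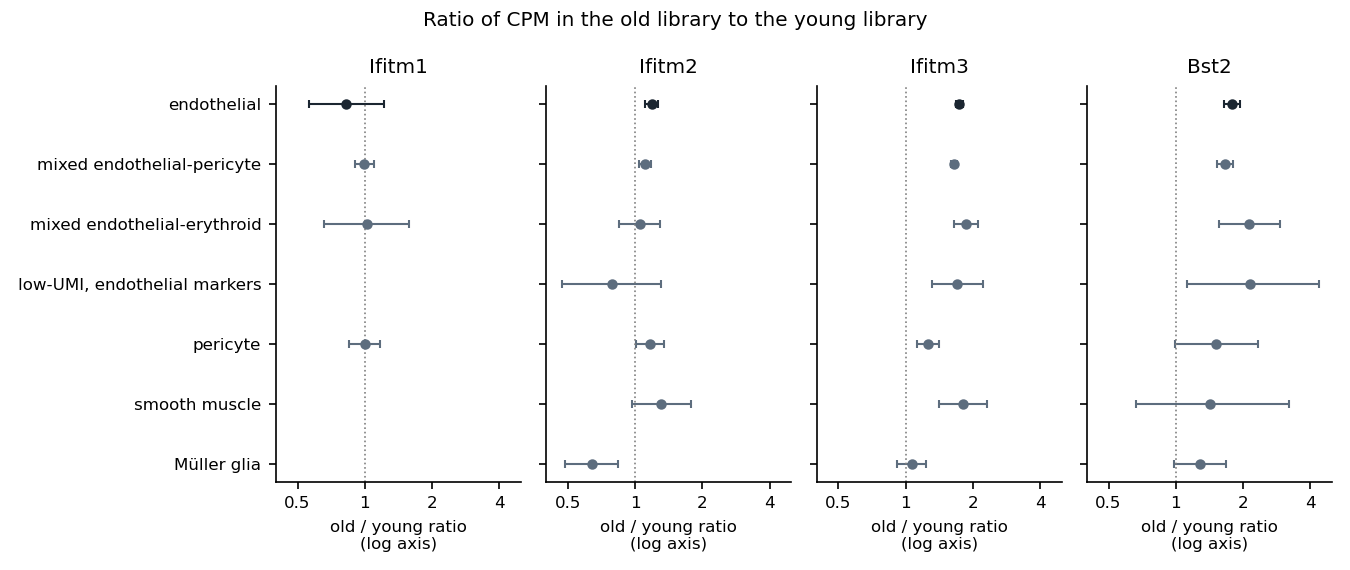
Old to young ratio of CPM (log axis) of each member by cell class, with 95% counting intervals, for cell classes and mixed droplets with at least 20 UMIs of the gene over both libraries. In endothelial cells Ifitm3 (1.74) and Bst2 (1.79) lie above Ifitm2 (1.18), and Ifitm2 in Müller glia (0.638) lies below 1.

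The shares of endothelial cells with a UMI showed the same members as higher in the old library. Since depth differed (median 5648, 6094 and 7651 UMIs in young, adult and old endothelial cells), cells were thinned to 2000 UMIs each, which left out 10, 20 and 3 shallower cells. After thinning, 84.7, 87.4 and 94.5% of the endothelial cells held Ifitm3 and 39.2, 34.7 and 51.3% Bst2. Before thinning the shares were 97.7, 96.2 and 99.5% and 70.9, 69.6 and 82.4%. In thinned rods, photoreceptors taken as background, the shares were 0.952, 5.56 and 2.82% for Ifitm3 and 2.86, 0.926 and 1.41% for Bst2. Rods before thinning had median depths of 2287, 2423 and 2153 UMIs, with Ifitm3 in 3.61, 5.92 and 5.93% and Bst2 in 1.81, 1.87 and 1.27% of cells.

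Ifitm2 was found in 58.7, 58.3 and 64.5% of thinned endothelial cells, and in 86.2, 88.0 and 93.3% before thinning. The Ifitm1 share after thinning was 2.35, 4.77 and 2.50%, from 10, 19 and 10 cells, and is not read as a difference. Cells with many transcripts of Ifitm3 or Bst2 were more frequent in the old library. At least 5 Ifitm3 UMIs per 2000 were present in 16.4% of young, 23.9% of adult and 44.3% of old endothelial cells, and at least 10 in 1.17%, 3.27% and 12%. At least 3 Bst2 UMIs were present in 2.58%, 1.76% and 9.25% of cells.

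The higher Ifitm3 level was not that of a few cells. The median endothelial cell had 1107 CPM of Ifitm3 at 3 months, 1289 CPM at 12 months and 1921 CPM at 23 months. Among thinned endothelial cells 4.69%, 6.03% and 2% held none of the 4 members and 21.8%, 21.6% and 31.3% held 3 of them. All 4 together were found in 0.704%, 1.26% and 1.25% of the cells.

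**Figure D3:**
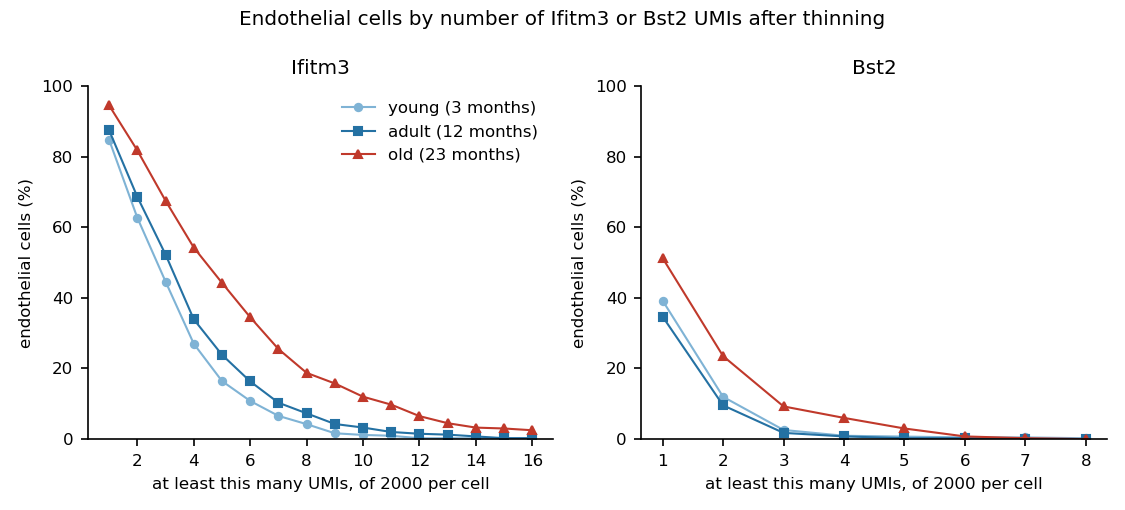
Share of endothelial cells (percent) with at least a given number of UMIs of Ifitm3 or Bst2 after each cell was thinned to 2000 UMIs, at each age. At 5 or more Ifitm3 UMIs the shares are 16.4% (young), 23.9% (adult) and 44.3% (old).

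Endothelial cells were split further by vessel-zone markers into arterial-like (29 young, 34 adult and 56 old cells), capillary-like (93, 98 and 80) and venous-like cells (18, 7 and 27), beside 4 groups called here by their leading genes. The capillary markers were also met in those groups (3 to 6 of them, as against 6 in the capillary-like group) and in the venous-like group (4, beside 5 venous markers), so the zones do not hold all cells with capillary markers. The group led by Mgll and Unc5b met 3 arterial markers as well, against 9 in the arterial-like group. Ifitm3 was highest in arterial-like cells of the young library, at 1983 CPM, against 1120.4 CPM in capillary-like and 1086 CPM in venous-like cells. In the adult library the levels were 2343, 1090.5 and 1461 CPM, and in the old library 2483, 2066 and 2469 CPM. The arterial to capillary ratio was accordingly 1.77 (1.59 to 1.96) in the young and 1.20 (1.12 to 1.29) in the old library.

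The old to young ratio of Ifitm3 was 1.25 (1.14 to 1.38) in arterial-like, 1.84 (1.70 to 1.998) in capillary-like and 2.27 (1.99 to 2.60) in venous-like cells. These ratios differed beyond counting error: the arterial-like one was 0.679 (0.599 to 0.770) of the capillary-like one, and the venous-like one 1.82 (1.54 to 2.14) times the arterial-like one. In the young, adult and old library, the 5 cells with most Ifitm3 held 44.8, 41.0 and 23.8% of its UMIs in arterial-like cells. They held 17.4, 16.2 and 19.5% in capillary-like and 54.3, 86.1 and 45.8% in venous-like cells. In young arterial-like cells 1 cell held 95 of 594 UMIs, without which the level was 1666 CPM. Markers of other classes also differed between ages in these zones. Müller markers were at 1078, 1458 and 1388 CPM in arterial-like, 459, 675 and 776 CPM in capillary-like and 353, 568 and 760.4 CPM in venous-like cells of the young, adult and old library. Pericyte markers were at 414, 768 and 235 CPM in arterial-like, at 1458, 1641 and 865 CPM in capillary-like and at 1525, 779 and 1311 CPM in venous-like cells. Their part in the zone differences was not tested.

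The Bst2 ratios had the same order of zones. Its levels in the young, adult and old library were 314, 309 and 398 CPM in arterial-like, 265, 197 and 516 CPM in capillary-like and 150.3, 187 and 597 CPM in venous-like cells. The old to young ratios were 1.27 (0.989 to 1.64), 1.95 (1.65 to 2.30) and 3.97 (2.84 to 5.70), and the venous-like ratio was 3.13 (2.07 to 4.74) times the arterial-like one. The venous-like values came from 40, 23 and 248 UMIs in 14, 5 and 24 cells, and the 5 cells with most Bst2 held 62.5, 100 and 66.1% of them. The Ifitm2 ratios of the zones did not differ beyond counting error, as their ratios of ratios lay between 0.899 and 1.02 with intervals that include 1.

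The 4 other endothelial groups were led by Mgll and Unc5b, by Lyz2 and Adm, by S100a8 and S100a9, and by Vtn and Ndufa4l2, the last 3 of which carry genes of other cell types. Ifitm3 was 2.02, 1.62, 1.72 and 1.75 times its young level in them, and Bst2 2.88, 1.37, 1.59 and 1.66 times. Without the last 3 groups the endothelial ratio of Bst2 was 2.09 in place of 1.79. Ifitm1 was 59.8, 80.1 and 74.8 CPM in the group led by Vtn, itself a pericyte marker.

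**Figure D4:**
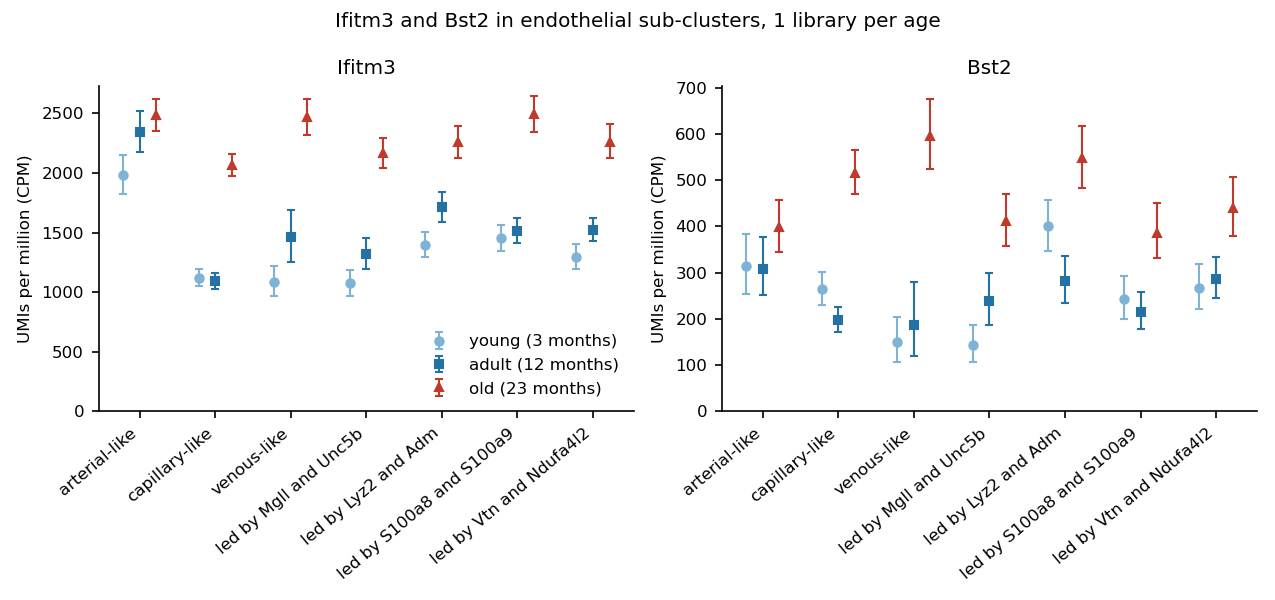
Levels of Ifitm3 and Bst2 (CPM, linear axis from 0) in the endothelial sub-clusters at each age, with 95% Poisson intervals. In the young library Ifitm3 is highest in arterial-like cells (1983 CPM), and in the old library the arterial-like (2483 CPM) and venous-like (2469 CPM) levels lie within each other's intervals.

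Droplets that carried endothelial RNA but were not counted as endothelial cells were compared in the same way. In mixed endothelial-pericyte, mixed endothelial-erythroid and low-UMI droplets with endothelial markers, the old to young ratio of Ifitm3 was 1.65, 1.87 and 1.70, and that of Bst2 1.65, 2.12 and 2.15. Ifitm2 gave 1.11, 1.05 and 0.784 (0.472 to 1.31), and the interval of the second, 0.849 to 1.29, includes 1 as that of the last does.

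In pericytes, the class with the highest Ifitm1 level, its old to young ratio was 0.997 (0.847 to 1.17). Ifitm2 had a ratio of 1.17 (1.01 to 1.35) and Ifitm3 of 1.26 (1.13 to 1.41). Without cells that carry 2 or more endothelial markers these ratios were 1.17 and 1.16. The Ifitm3 ratio in pericytes was 0.723 (0.644 to 0.812) of that in endothelial cells. Bst2, from 45, 39 and 49 UMIs, had a ratio of 1.52 (0.990 to 2.32), so 1 of 4 members was past 1.5-fold where 9.79% of the genes tested in pericytes were. That ratio was below 1.5 in 3 of 5 alternatives, at 1.28 after thinning, 1.34 without cells that carry endothelial markers and 1.44 when scaled by the median of gene ratios. Ifitm1 was detected in 78.7, 60.5 and 72.8% of pericytes, and in 61.6, 45.4 and 50% after thinning to 2000 UMIs, against 0, 0 and 0.847% of unthinned rods. Pericyte median depths were 4011, 3950 and 4674 UMIs.

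In smooth muscle cells Ifitm3 was higher 1.82-fold (1.42 to 2.34) in the adult and 1.81-fold (1.42 to 2.32) in the old than in the young library, and the old to adult ratio was 0.996 (0.814 to 1.22). Of the 2 members with at least 50 UMIs there, Ifitm3 alone passed 1.5-fold, where 10.1% of genes did from young to adult and 11.6% from young to old. The share of thinned smooth muscle cells with Ifitm3 was 42.1, 71.1 and 40.5% and did not follow the CPM, so no order is read from it. In the same cells the pericyte markers were at 9564, 9636 and 5194 CPM and the endothelial markers at 0.232%, 0.370% and 0.674% of the endothelial level. Without cells that carry 2 or more endothelial markers the old to young ratio of Ifitm3 was 1.62, and the part of the pericyte markers was not tested. Ifitm2 had an old to young ratio of 1.31 (0.967 to 1.78), which was 0.698 after thinning, and Bst2 gave 12, 12 and 20 UMIs.

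In Müller glia Ifitm2 was lower in the old than in the young library. Its level was 87.0 CPM (73.3 to 102) at 3 months, 90.05 CPM (77.2 to 104) at 12 months and 55.5 CPM (44.4 to 68.4) at 23 months, from 144, 175 and 87 UMIs in 46, 56 and 27 cells. The old to young ratio was 0.638 (0.483 to 0.838), and 0.539 (0.409 to 0.709) of the endothelial one. Ifitm2 was thus at least 1.5-fold lower, as were 5.12% of the genes tested in Müller glia, but its ratio was 0.784 in cells with 1000 to 6000 genes and 1 to 10% mitochondrial UMIs, which is not. Thinned shares were 12.3, 10.6 and 5.95%, and unthinned shares 25.4, 26.2 and 12.98%, at median depths of 9166, 9468 and 6912 UMIs. Nearly all of these UMIs lay in the larger of 2 Müller clusters, with 144, 174 and 86 UMIs against 0, 1 and 1 in the smaller one. The summed endothelial markers in Müller glia were at 0.215%, 0.252% and 0.368% of the endothelial level, and the rod markers at 0.862%, 2.49% and 1.96% of the rod level. Without cells that carry 2 or more endothelial markers the Ifitm2 ratio was 0.617, and the part of the rod markers was not tested.

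Ifitm3 in Müller glia was higher 1.43-fold (1.25 to 1.63) in the adult than in the young library, and its old to young ratio was 1.06 (0.920 to 1.23). Bst2 had an old to young ratio of 1.28 (0.980 to 1.69), which was 2.04 after thinning, and 1 young cell held 37 of the 102 young UMIs. The Ifitm1 count in Müller glia was 8, 60 and 1 UMIs, and 1 adult cell held 53 of the 60 adult ones, without which the adult level was 3.60 CPM. The adult Ifitm1 value is thus the value of 1 cell, and without that cell Ifitm1 would not reach the 50 UMIs asked of a gene. Its old to young ratio was 0.132 (0.00298 to 0.985), from 8 and 1 UMIs, so with it 2 of 4 members were at least 1.5-fold lower, where 5.12% of genes were.

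Photoreceptors and bipolar cells held few UMIs of any member. Ifitm3 in rods was 12.5, 23.2 and 27.9 CPM and in bipolar cells 15.3, 9.88 and 15.4 CPM, and Bst2 in rods was 6.25, 6.04 and 4.92 CPM. In each library 1 bipolar cell held 14, 8 and 8 of the 20, 14 and 17 Ifitm3 UMIs, and without it the levels were 4.603, 4.23 and 8.18 CPM. In cones Ifitm1 was at 0 UMIs in all 3 libraries, which at 3 UMIs per library allows up to 6.102, 4.47 and 6.03 CPM. For rods, cones and bipolar cells as whole classes, the intervals of all old to young ratios that could be computed included 1, so no difference was detectable at these counts.

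Smaller classes are given over all 3 libraries together, or by library where these differed. B cells held Bst2 at 222 CPM (107 to 409) at 3 months, 58.6 CPM (34.8 to 92.7) at 12 months and 129.9 CPM (88.9 to 183) at 23 months, from 10, 18 and 32 UMIs in 10, 76 and 57 cells, and the old to adult ratio was 2.22 (1.21 to 4.19). In the young library 1 cell held 6 of the 10 UMIs, without which the level was 89.0 CPM, and the B cells carried endothelial markers at 7.40%, 0.988% and 1.36% of the endothelial level, whose part in these values was not tested. Over the 143 B cells there were 0 UMIs of Ifitm1, 3 of Ifitm2 and 8 of Ifitm3. In 64 cells of the retinal pigment epithelium, 55 of them from the old library, Ifitm2 was at 208, Ifitm3 at 275 and Bst2 at 259 CPM, with 1 UMI of Ifitm1. A mixed cluster of 52 cells (9, 29 and 14 in the young, adult and old library) carried T cell and microglia markers. It was led by myeloid genes such as Lyz2, S100a9 and C1qa. In the same order of libraries it gave 11, 243 and 204 UMIs of Ifitm3, 10, 54 and 94 of Ifitm2 and 0, 15 and 136 of Ifitm1. The 5 cells with most Ifitm3 held 100, 93.8 and 98.5% of its UMIs. The old Ifitm1 UMIs lay in 5 cells and made 1217 CPM, against 63.6 CPM in the adult library. Pericyte markers in this cluster were at 0%, 9.16% and 6.84% of the pericyte level, and their part in these counts was not tested. An unnamed cluster of 38 cells led by crystallin genes, 37 of them from the adult library, held Ifitm2 at 492 CPM and Ifitm3 at 87.9 CPM.

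The genes whose levels were most like those of each member were sought among 10420 genes over 21 points, the 7 classes in the 3 libraries, by Pearson correlation of log2(CPM + 10). Points of 1 library share its depth and points of 1 class its cell type, so the coefficients are descriptions of the class pattern. Ifitm1 was most like Slc16a12, a transporter of the monocarboxylate family, with r = 0.969, followed by Kcnj8, a potassium channel subunit of pericytes, Lama2, Impa2 and Fhl2. For Ifitm2 these were Ccdc102a (r = 0.987), Myl12a, Cd151, Fcgrt and Arap2. Ifitm3 was most like Serpinb9, an inhibitor of granzyme B (r = 0.981), then Mast4, Crip2, Fcgrt and Emp2, with Ifitm2 at rank 7 and Bst2 at rank 89. Bst2 was most like B2m, the light chain of MHC class I (r = 0.987), then Ifi35, Gbp7, the immunoproteasome subunit Psmb8 and Plscr4, with Ifitm3 at rank 51.

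Other genes of the antiviral response were taken from lists and are given with the same endothelial old to young ratio. Of 8 further membrane or endosomal effectors 7 had at least 50 UMIs, and 1 was at least 1.5-fold higher, where 5.8% of all genes were. That gene was Ch25h, the cholesterol 25-hydroxylase, at 1.94 (1.32 to 2.89). The list median was 1.27, against 1.02 over all genes. The lowest was Serinc5, a restriction factor of retroviral particles, at 0.941 (0.722 to 1.23). None was at least 1.5-fold lower, where 4.13% of all genes were.

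Among 20 intracellular effectors 17 could be measured, and 6 were at least 1.5-fold higher and 0 lower, where 5.8% and 4.13% of all genes were. The list median was 1.36, against 1.02 over all genes. The highest were Ifit3 at 2.43 (2.15 to 2.76), Ifit1 at 2.01 (1.81 to 2.24), the ubiquitin-like Isg15 at 2.20 (2.05 to 2.36), the oligoadenylate synthetase Oas1a at 2.19 (1.58 to 3.06) and the exonuclease Isg20 at 1.98 (1.47 to 2.68). The lowest was Zc3hav1, which encodes the zinc-finger antiviral protein, at 0.962 (0.774 to 1.20). Mx1 and Mx2 were not analysed here.

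All 10 interferon signalling genes of the list reported here were measured. In endothelial cells 2 were at least 1.5-fold higher, where 5.8% of all genes were. These were the transcription factor Irf7 at 2.91 (2.59 to 3.27) and the feedback regulator Usp18 at 1.57 (1.27 to 1.93). The list median was 1.15, against 1.02 over all genes. Ifitm3 and Bst2 thus lay above the medians of all 3 lists. Their ratios were below those of Irf7, Ifit3, Isg15, Oas1a, Ifit1, Isg20, Ch25h and Oasl2 (1.89). The response element core was found in the promoter window of 1 of 6 matched membrane effectors (Rsad2), 8 of 16 intracellular effectors and 2 of 9 signalling genes, and in that of 3.99% of all 27025 genes.

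In pericytes 4, 6 and 6 genes of the 3 lists could be measured, of which 1, 1 and 2 were at least 1.5-fold higher, where 9.79% of all genes were, with medians of 1.08, 1.35 and 1.05. At least 1.5-fold lower there was 1 membrane effector, Zmpste24 at 0.464 (0.227 to 0.888), where 6% of all genes were. In Müller glia 2 of 7, 3 of 12 and 2 of 9 were at least 1.5-fold higher, where 7.12% of all genes were, with medians of 1.11, 1.28 and 1.23. At least 1.5-fold lower there were 1 membrane effector and 1 signalling gene, Serinc5 at 0.660 (0.358 to 1.19) and Socs1 at 0.583 (0.296 to 1.11), where 5.12% of all genes were. The median ratio over all genes tested was 1.05 in pericytes and 1.02 in Müller glia.

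**Figure D5:**
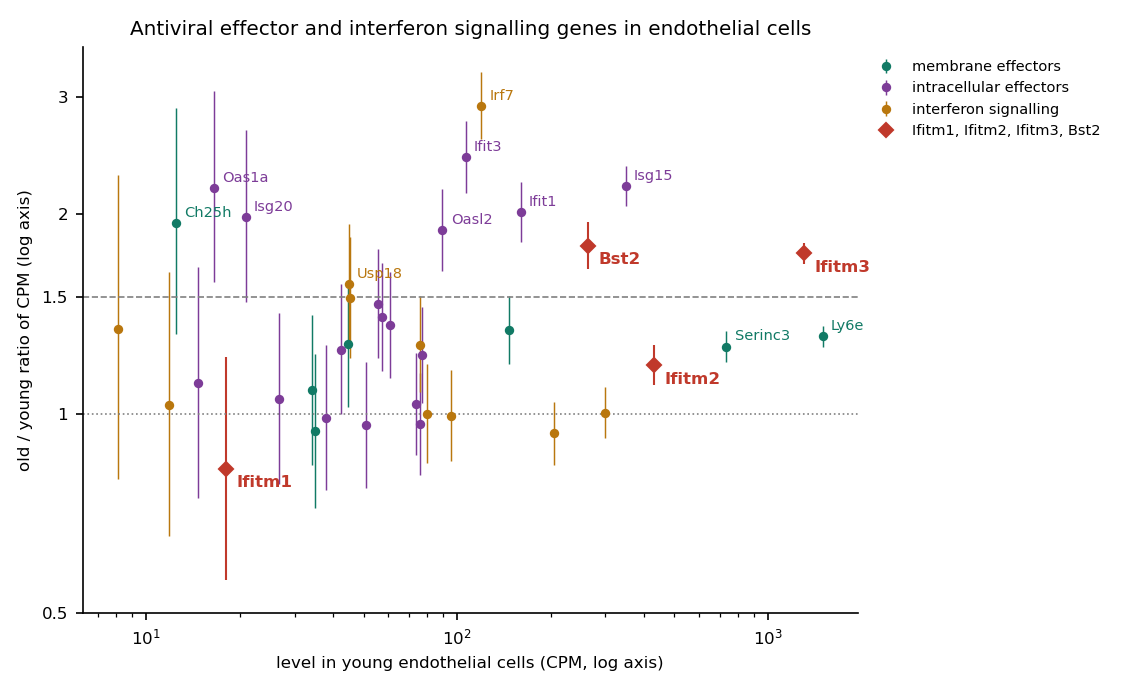
Old to young ratio of CPM in endothelial cells (log axis), against the young level (CPM, log axis), of the 4 members and of the measured genes of the membrane effector, intracellular effector and interferon signalling lists, with 95% counting intervals. Bst2 (1.79) and Ifitm3 (1.74) lie above the list medians of 1.27, 1.36 and 1.15.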

How the data were processed

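The deposited values were unnormalised UMI counts for each barcode, which the authors made from 10x Genomics v3.1 3′ libraries. The submitters' processing notes name Cell Ranger 6.1.2 and mm10. Cells with 500 to 6000 genes and 1 to 20% mitochondrial UMIs were kept, and Scrublet doublets (8, 17 and 12 cells of the young, adult and old library) were left out. Of 2491, 3243 and 2751 barcodes 1713, 1974 and 1713 passed these limits, which are the study's, and library totals were 16577026, 19977238 and 17021820 UMIs. Clustering used Seurat 5.3.0 in R 4.3.3 (CCA integration, 2000 features without ISGs and senescence genes, 30 components, resolution 0.5), and endothelial cells were re-clustered on 20 components. Clusters were named from marker lists. Sums were made in Python 3.11.15 with scipy 1.17.1.

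UMIs were summed per class and library and divided by the class total (CPM). Intervals are exact Poisson for levels, exact conditional for ratios, Clopper-Pearson for shares and normal on the log scale for ratios of ratios, all at 95%, and UMIs of 1 cell are not independent. With 1 library per age no p-value was computed. A fold of 1.5 and at least 50 UMIs over the 3 libraries were used for counts of genes. A 0 allows up to 3 UMIs. The ratios and their intervals were tested on simulated Poisson counts of class sums. These were drawn without added spread between cells or mice, so that spread was not covered.

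Gene positions came from GENCODE M21, in which 32158 of the 32285 identifiers were found, and promoters from RefSeq. The 4 members and all lists were chosen with earlier results of these data known. The genes named were the members, all further Ifitm genes, the 5 highest and 2 lowest effectors by endothelial old to young ratio, the signalling genes past 1.5-fold, and the 5 genes most like each member, among genes with at least 200 UMIs. Ch25h, Oasl2, Rsad2, Zmpste24, Socs1 and the leading genes of clusters fall outside that rule and were named after their values were seen. 1 item of the signalling list is not reported here. Alternatives covered depth, the choice of cells, free RNA, scaling, cell weighting and the filter on low counts.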

Additional observations from a re-analysis of the deposited data

Results flagged for a closer look

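The old to young ratio of Ifitm2 differed between classes by more than counting error: it was 0.638 in Müller glia, 1.18 in endothelial cells and 1.17 in pericytes. The Müller to endothelial ratio of ratios was 0.539 (0.409 to 0.709). Each age was 1 library, so the difference was not tested over replicates. The old Müller value rested on 87 UMIs in 27 cells. The Müller ratio was 0.784 in cells with 1000 to 6000 genes and 1 to 10% mitochondrial UMIs.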

How the results depend on the processing

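No paired analysis was possible because each age was 1 library, and no library could be left out for the same reason. Of 89 alternative ratios of the members 77 stayed within the counting interval of the value reported, 12 left it, and 0 of those whose reported interval excluded 1 changed direction. In endothelial cells, over 11 alternatives each, the old to young ratio ran from 1.70 to 1.86 for Ifitm3, from 1.64 to 2.09 for Bst2 and from 1.12 to 1.23 for Ifitm2. Ifitm1 was not stable, at 0.376 with the class set from each cell's own markers and 2.67 without cells that carry 2 or more markers of another class. Without the 3 sub-clusters led by genes of other cells, an alternative chosen after seeing the data, it was 0.540 and Bst2 2.09. Ifitm3 was 1.84 after thinning to 2000 UMIs and 1.86 without cells that carry markers of another class. Bst2 was 1.64 without the top 5% of cells by UMIs and 1.64 as a mean of per-cell CPM. Thinning moved Ifitm2 in smooth muscle cells to 0.698, from a main value whose interval includes 1, Ifitm3 in Müller glia to 1.5 and Bst2 there to 2.04. With 1000 to 6000 genes and 1 to 10% mitochondrial UMIs Ifitm3 in Müller glia was 1.31. The causes were not tested. Thinned shares of young, adult and old endothelial cells were 2.35%, 4.77% and 2.5% for Ifitm1, 58.7%, 58.3% and 64.5% for Ifitm2, 84.7%, 87.4% and 94.5% for Ifitm3, and 39.2%, 34.7% and 51.3% for Bst2. The share of all genes at least 1.5-fold higher in old endothelial cells was 2.93% with at least 200 UMIs and 18.4% with no minimum. That of lower genes was 1.27% and 16.1%, so both shares depend on the minimum. Low UMI counts of the members limit what can be read in the neurons, in smooth muscle cells and for Bst2 in pericytes.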
